A study of Mus musculus with 272 samples.

Results

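Polycomb genes and H3K27 demethylases were followed in the chromatin of mouse muscle stem cells (MuSCs): *Ezh1*, *Ezh2*, *Eed*, *Suz12* and *Jarid2* of Polycomb repressive complex PRC2, *Bmi1*, *Ring1* and *Rnf2* of PRC1, and the demethylase genes *Kdm6a* and *Kdm6b*. These 10 genes were taken by name from GENCODE M21 (mm10), out of 55413 annotated genes on the assembled chromosomes, 21938 of them protein-coding. The study's methods describe the sorting of GFP+ MuSCs from hindlimb muscles of Pax7Cas9 mice, in which Pax7Cre switches on a Cas9-EGFP knock-in at *Rosa26*. The cells used here are taken to be of this kind. The study's ATAC-seq and ChIP-seq methods themselves name no mouse line and do not say whether the cells were edited. None of the libraries was titled as a control without Cas9. The libraries were of 4 kinds, in 2 replicates each: ATAC-seq for open chromatin, and ChIP-seq for H3K4me3 (active and poised promoters), H3K27ac (active promoters and enhancers) and H3K27me3 (the mark of PRC2). The labels of these 8 libraries give skeletal muscle as the tissue, with no age or strain, and do not say whether the replicates came from separate animals.

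PRC2 methylates H3K27 through its catalytic subunit, EZH1 or EZH2, and needs EED, which binds the finished mark, and the scaffold SUZ12. PRC1 holds RING1 or RNF2, the ligases that ubiquitinate histone H2A, together with a PCGF protein such as BMI1, while KDM6A and KDM6B remove methyl groups from H3K27. In the muscle lineage, EZH2 is known for keeping differentiation genes silent in undifferentiated cells.

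Each peak list stands for 1 library, and the fold given here is the authors' enrichment at the summit over local background. The series labels 1 input library for H3K27me3 and H3K4me3 together and 1 for H3K27ac, without separate inputs per replicate and with none for ATAC-seq. Read numbers are not part of the lists, the depth is therefore unknown, and folds are read within a library only. In replicates 1 and 2 there were 140716 and 94382 ATAC-seq peaks, 20512 and 18001 H3K4me3 peaks, 24209 and 18584 H3K27ac peaks, and 6064 and 10458 H3K27me3 peaks, the last with 68.3% and 34.8% of peaks overlapping the other replicate. All 13 markers of muscle stem cells looked up, *Pax7* and *Myf5* among them, had ATAC-seq and H3K4me3 promoter peaks in both replicates, 12 had H3K27ac and 0 had H3K27me3. Of 20 markers of fibro-adipogenic, endothelial, blood and muscle fibre cells, 15 had ATAC-seq, 8 H3K4me3, 4 H3K27ac and 3 H3K27me3 promoter peaks, and their part in the values below was not tested.

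A promoter was taken as 3 kb either side of any annotated start site of the gene, and a gene was counted when both replicates had a peak there. All 10 genes had ATAC-seq, H3K4me3 and H3K27ac promoter peaks, against 67.8%, 60.8% and 46.6% of protein-coding genes, and all 10 had these 3 features together, against 46.2%. Only *Bmi1* had H3K27me3 at its promoter (4.81% of protein-coding genes) and thereby all 4 features, a state listed for 0.784% of protein-coding genes. The strongest *Bmi1* promoter peaks had a −log10 q of 4.01 and 1.86, and with a minimum of 5 the count of genes with H3K27me3 was 0. The other 9 genes had the 3 active features with H3K27me3 in neither replicate, against 44.4%. With 2 libraries per feature no test was made, and a promoter without a listed peak was counted as unmarked whatever the reason.

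The promoters shared a base composition that the choice of genes did not use. RefSeq promoter sequences of 300 bp around the start (GRCm38.p6) were at hand for 9 of the 10 genes, with 2 for *Jarid2*. Their ratio of observed to expected CpG ran from 0.708 to 1.09, against a median of 0.384 over 32851 promoters, and their GC content from 54.7% to 74%, against a median of 52.7%. Even the promoter with the lowest ratio, that of *Kdm6a*, had a higher ratio than 71.6% of all promoters. Neither composition nor the motif shares below were computed over promoters with an H3K4me3 peak only, a peak that all 10 genes had. Short motifs were searched on both strands. The Sp motif GGGCGG stood in 7 of the 10 promoters and in 35.7% of all promoters, and the NF-Y motif CCAAT in 5 of the 10 and in 37.4%. The E-box CAGCTG of myogenic factors was found in 2 (16.3% of all), the Myc E-box CACGTG in 2 (7.15%) and the E2F motif TTTCCCGC in 1, *Suz12* (1.07%). CCGGAAG (Ets), TGACGTCA (CRE), TGANTCA (AP-1) and CGCATGCG (NRF1) were in 0 of the 10 and in 8.86%, 1.79%, 7.81% and 1.87% of all promoters. Of these sequences 3 are shown because they stand for the range of promoter states described next: *Ezh2* (chr6:47594981-47595280, minus strand), among the strongest active promoters, *Bmi1* (chr2:18676768-18677067, plus strand), which has H3K27me3 just downstream, and *Ring1* (chr17:34024631-34024930, minus strand), with the weakest ATAC-seq peak. Capitals mark motif matches, which overlap in places for GGGCGG.

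Ezh2: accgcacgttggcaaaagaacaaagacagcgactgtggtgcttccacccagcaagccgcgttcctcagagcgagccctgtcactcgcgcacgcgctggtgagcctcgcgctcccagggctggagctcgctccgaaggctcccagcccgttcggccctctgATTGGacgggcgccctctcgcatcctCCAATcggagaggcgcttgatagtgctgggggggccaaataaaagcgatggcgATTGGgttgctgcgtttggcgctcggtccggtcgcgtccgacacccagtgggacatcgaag
Bmi1: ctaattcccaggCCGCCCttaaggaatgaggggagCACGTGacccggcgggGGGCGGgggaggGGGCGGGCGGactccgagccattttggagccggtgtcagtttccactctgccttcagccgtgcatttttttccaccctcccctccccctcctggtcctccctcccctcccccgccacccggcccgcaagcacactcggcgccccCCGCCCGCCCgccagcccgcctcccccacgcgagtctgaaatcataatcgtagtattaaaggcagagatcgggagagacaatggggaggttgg
Ring1: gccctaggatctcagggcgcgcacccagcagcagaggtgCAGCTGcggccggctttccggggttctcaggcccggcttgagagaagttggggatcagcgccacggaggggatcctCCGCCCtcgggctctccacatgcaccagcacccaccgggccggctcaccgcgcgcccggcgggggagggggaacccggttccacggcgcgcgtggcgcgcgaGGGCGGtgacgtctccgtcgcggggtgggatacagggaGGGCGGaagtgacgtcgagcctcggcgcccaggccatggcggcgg

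*Ezh2* carried 3 copies of CCAAT, *Bmi1* 6 of GGGCGG and 1 CACGTG, and *Ring1* 3 of GGGCGG and 1 CAGCTG. A match is given as a description of the letters only.

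Among the catalytic subunits, *Ezh2* (chr6:47530139-47595341, minus strand) had the plainest locus. Its strongest promoter peaks had folds of 18.4 and 17.3 for ATAC-seq in replicates 1 and 2, 43.1 and 28.2 for H3K4me3, and 27.3 and 23.8 for H3K27ac, all covering the 5′-most start. Ranked among protein-coding genes with such a peak, these values lay above 79.2% and 81.1%, 95.3% and 87.6%, and 87.3% and 89.5% of genes. In the gene and 20 kb either side no peak of any feature lay outside the promoters of *Ezh2* itself, which include those of internal start sites. Only through these does an ATAC-seq peak 14.4 kb inside the gene count, with folds of 6.13 and 7.71 and no histone peak over it. The same holds for weaker ATAC-seq peaks 51.8 and 61.0 kb inside, in replicate 1 only. The nearest H3K27me3 peak was 1618 kb and 1148 kb from the *Ezh2* start.

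*Ezh1* (chr11:101191115-101226463, minus strand), which encodes the other catalytic subunit, had H3K4me3 folds of 33.7 and 21.7 and H3K27ac folds of 22.6 and 16.9. Its H3K4me3 peak was the narrowest of the 10 genes, at 1535 and 1237 bp, although its fold exceeded that of 78.7% and 66.7% of genes. At the start itself the ATAC-seq fold was 17.5 and 11.2. A further ATAC-seq peak lay 14.3 kb inside the gene (chr11:101212030-101212210 in replicate 1), with folds of 14.3 and 12.02 and no histone peak over it, so that in replicate 2 the strongest ATAC-seq peak of *Ezh1* was this internal one. It counts as a promoter peak only because minor transcripts without a coding sequence start nearby. Upstream of *Ezh1*, between 3.2 and 5.9 kb from the start, weak H3K4me3 peaks (5.56 in replicate 1, 4.01 and 3.41 in replicate 2) and H3K27ac peaks (5.37 in replicate 1, up to 5.62 in replicate 2) were listed outside any promoter.

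*Eed* and *Suz12* complete the PRC2 core. *Eed* (chr7:89954654-89980983, minus strand) had ATAC-seq folds of 17.1 and 13.2, H3K27ac folds of 30.7 and 24.3, above 91.2% and 90.1% of genes, and H3K4me3 folds of 29.8 and 19.9, above 67.7% and 59.7%. *Suz12* (chr11:79993106-80034123, plus strand) showed the opposite order of the histone marks. Its H3K4me3 folds of 41.2 and 28.9 lay above 93.3% and 89.1% of genes, while its H3K27ac folds of 14.5 and 15.2 lay above 51.8% and 65.6%. Its ATAC-seq fold, 20.0 in replicate 1, was the highest of the 10 genes in that library, and 15.8 in replicate 2.

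The flanks of *Suz12* held the strongest distal ATAC-seq peak of the 10 windows in replicate 1. Distal here means outside the promoters of the gene and of every other protein-coding gene. This peak lay 57.0 kb downstream of the start, past the end of the gene, with folds of 15.6 and 12.99, overlapping an H3K27ac peak of fold 4.98 in replicate 1 only. On the other side, 18.7 and 19.3 kb upstream, ATAC-seq peaks with folds of 11.1 and 10.5, and of 7.02 and 5.55, lay inside an H3K4me3 peak of fold 6.91 and 5.22 without H3K27ac.

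**Figure D1:**
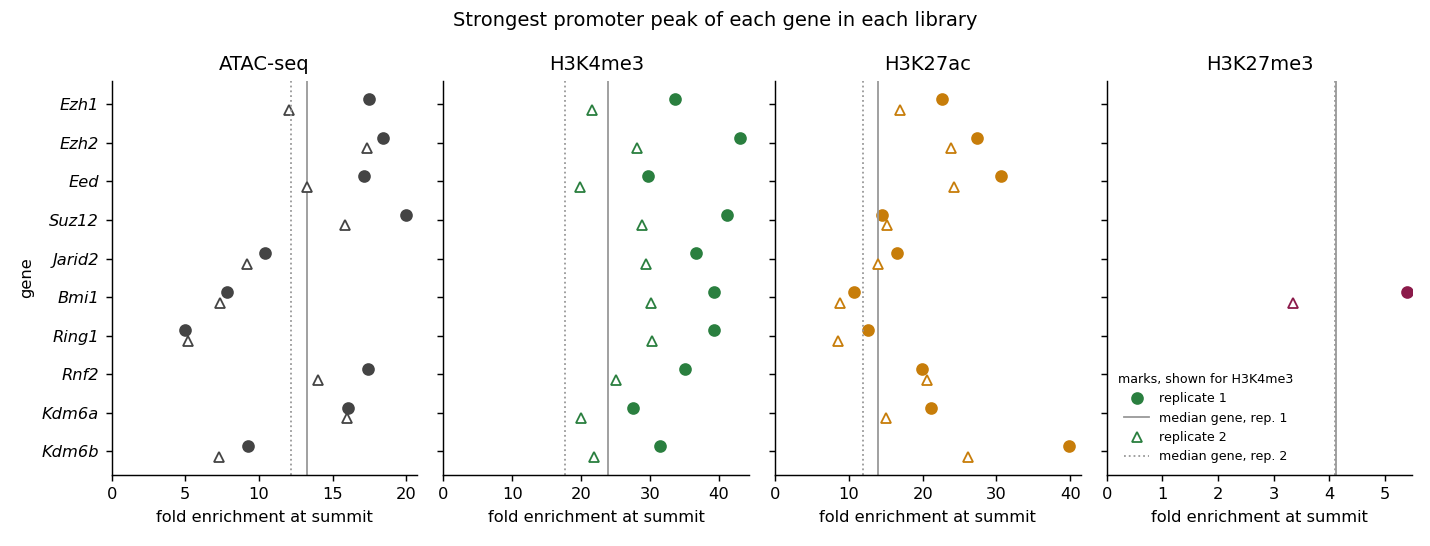
Fold enrichment at the summit of the strongest promoter peak of each gene (rows), for the 4 features (panels), with a filled circle for replicate 1 and an open triangle for replicate 2; vertical lines give the median over protein-coding genes with a peak (solid, replicate 1; dotted, replicate 2). All H3K4me3 points lie right of the median of their own library, *Ring1* has the lowest ATAC-seq folds (4.94 and 5.15), and *Bmi1* is the only gene with points for H3K27me3.

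*Jarid2* (chr13:44729474-44921643, plus strand) encodes an accessory subunit that helps to recruit PRC2, and is the longest of the 10 genes at 192170 bp. One H3K4me3 peak of 5241 bp in replicate 1 and 5100 bp in replicate 2 ran over 13 of its 16 annotated start sites, with folds of 36.8 and 29.4. That peak was wider than those of 98.9% and 99.6% of genes. The strongest ATAC-seq peak, with folds of 10.4 and 9.20, lay 1.1 kb inside the 5′-most start, at a group of 10 start sites that begins 1300 bp downstream, and the H3K27ac folds were 16.5 and 13.98. A separate pair of start sites, among them that of a coding transcript, 111 kb inside the gene had its own, weaker peaks: ATAC-seq 6.81 and 6.17, H3K4me3 5.85 and 5.29, and H3K27ac 3.32 in replicate 1 only.

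The *Jarid2* window held 26 and 15 of the 68 and 39 distal ATAC-seq peaks of all 10 windows. Of these 26 and 15, 15 and 13 had a counterpart in the other replicate, beside 62.9% and 84.7% of all ATAC-seq peaks. Within the gene lay 16 and 12. A peak of H3K4me3, H3K27ac or H3K27me3 overlapped 0 of the 26 and 15, and 17 and 13 of the 68 and 39. The share of unmarked peaks among all distal ATAC-seq peaks of the genome was not computed. Length enters the count of distal peaks. Per 100 kb the *Jarid2* window held 14.6 and 9.48 ATAC-seq peaks of all kinds, more than 72.2% and 66.3% of protein-coding genes. The strongest distal peak, with folds of 15.3 and 14.8, lay 41.6 kb inside the gene, and its summits in the 2 replicates were 14 bp apart. The stretch of 50 bases either side of the summit in replicate 1 (chr13:44770999-44771099, plus strand) is shown as the clearest open site without a histone mark and stands in lower case because it holds 0 matches to the motifs searched.

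Jarid2 distal site: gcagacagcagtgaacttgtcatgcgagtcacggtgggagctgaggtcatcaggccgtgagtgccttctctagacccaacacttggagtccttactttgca

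**Figure D2:**
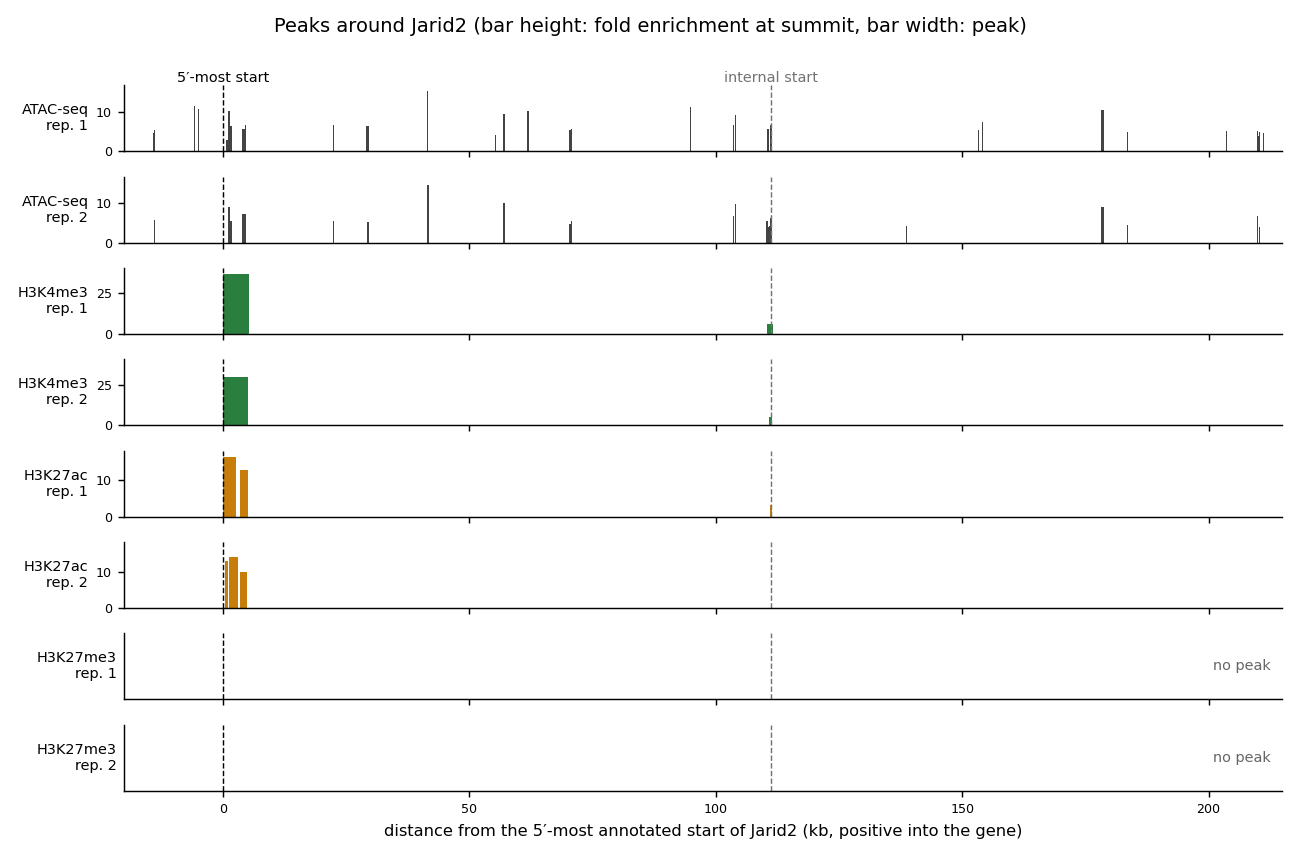
Peaks around *Jarid2* by distance in kb from its 5′-most annotated start (dashed black; dashed grey, internal start sites), 1 row per library, with bar height as fold enrichment at the summit and bar width as the peak, drawn no thinner than a fixed line. ATAC-seq peaks are spread along the gene, H3K4me3 and H3K27ac peaks stand only at the 2 start regions, and no H3K27me3 peak is listed.

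*Bmi1* (chr2:18677018-18686629, plus strand), a PRC1 gene known for keeping cell cycle inhibitor genes silent, differed from the other 9 genes in carrying the Polycomb mark itself. H3K4me3 at its start had folds of 39.4 and 30.1, above 90.7% and 91.6% of genes, while H3K27ac had 10.7 and 8.83, above 35.3% and 31.4%, and ATAC-seq 7.85 and 7.32, above 16.03% and 15.97%. H3K27me3 was listed in 4 and 2 peaks of its promoter, the strongest with folds of 5.40 and 3.36. Among protein-coding genes with an H3K27me3 promoter peak, *Bmi1* stood above 84.1% in replicate 1 and above 13.2% in replicate 2, so that its rank for this mark was not the same in the replicates.

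The marks followed each other along the *Bmi1* promoter in the same order in both replicates. H3K27ac ended 488 and 498 bp downstream of the start, the first H3K27me3 peak began at 676 and 760 bp, and the main H3K4me3 peak ended at 1705 and 1336 bp. Between the last base of the H3K27ac peak and the first of the H3K27me3 peak lay 187 and 261 bp without a listed peak of either mark. These are edges of listed peaks only, and the median H3K27me3 peak was 176.5 and 181 bp wide. No H3K27me3 peak of the window lay upstream of the start.

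Past the promoter, H3K27me3 peaks were absent over the rest of the 9612 bp gene and set in again beyond its 3′ end, from 11.5 kb in replicate 1 and 11.3 kb in replicate 2, as 5 and 3 distal peaks and 12 and 9 peaks in promoters of the downstream gene *Spag6*, ending at 23.8 and 23.98 kb. In all, the window held 21 and 14 H3K27me3 peaks covering 8349 and 8182 bp, with folds from 2.42 to 5.65 in replicate 1 and from 2.73 to 5.49 in replicate 2. Of these, 2538 and 1609 bp were shared with H3K4me3 peaks and 6 and 0 bp with H3K27ac peaks. A q-value of at most 0.05 was reached by 14 of 21 and 11 of 14. A window with H3K27me3 in both replicates was found for 8.76% of protein-coding genes, and 77 and 272 genes, *Bmi1* included, had as many peaks as *Bmi1* or more.

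Between *Bmi1* and *Spag6*, from 11.7 to 13.7 kb downstream of the *Bmi1* start in replicate 1 and from 11.6 to 13.6 kb in replicate 2, an H3K4me3 peak of fold 13.1 and 9.70 lay together with H3K27me3 and without H3K27ac, outside annotated promoters of protein-coding genes. An ATAC-seq peak inside it, 13.3 kb from the *Bmi1* start, had folds of 4.12 and 4.30. Its summit window (chr2:18690315-18690415, plus strand) is shown as the open site of this H3K4me3 peak that lay under both methylation marks and was listed in both replicates. Stronger ATAC-seq peaks under both marks stood in the same H3K4me3 peak, each in a single replicate. Their folds reached 8.79 in replicate 1 and 4.91 in replicate 2. The *Spag6* start, 17014 bp from that of *Bmi1*, again carried H3K27ac (14.6 and 11.4), with H3K27me3 to either side. Upstream of *Bmi1*, by contrast, *Commd3*, whose start lies 4634 bp away and whose promoter overlaps that of *Bmi1*, had H3K27ac folds of 20.8 and 23.9 and no H3K27me3.

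Bmi1 downstream site: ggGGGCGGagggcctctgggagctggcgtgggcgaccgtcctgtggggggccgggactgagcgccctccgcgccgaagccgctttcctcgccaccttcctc

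Capitals mark the only motif match there, GGGCGG, which 4.49% of 96440 ATAC-seq summit windows outside promoters of protein-coding genes held in replicate 1. GC content was 76.2% in this window and 54.5% in that of the *Jarid2* distal site.

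**Figure D3:**
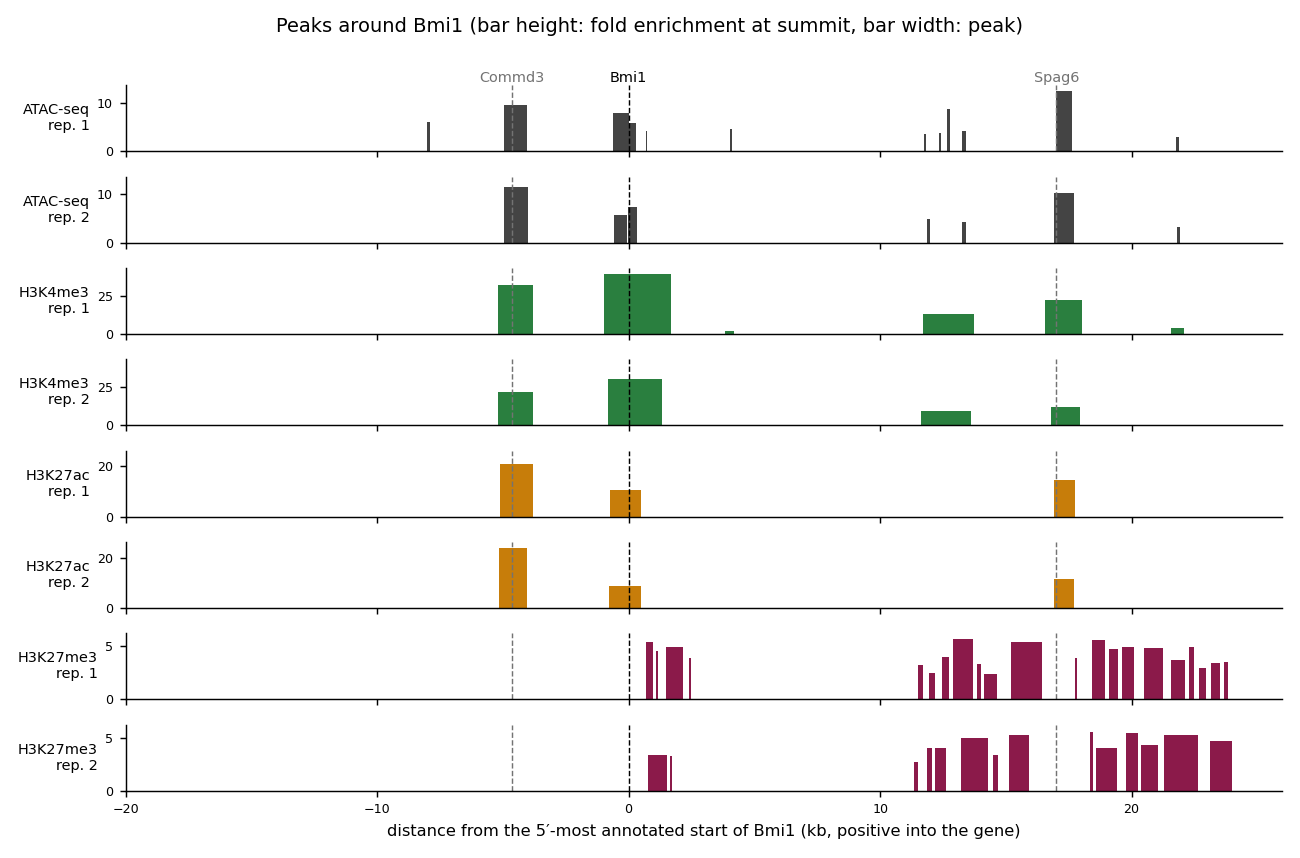
Peaks around *Bmi1* by distance in kb from its 5′-most annotated start (dashed black; dashed grey, starts of *Commd3* and *Spag6*), 1 row per library, with bar height as fold enrichment at the summit and bar width as the peak, drawn no thinner than a fixed line. H3K27ac stands over the 3 starts, and H3K27me3 begins 676 and 760 bp downstream of the *Bmi1* start and comes back from 11.5 and 11.3 kb on.

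*Ring1* and *Rnf2* encode the alternative H2A ubiquitin ligases of PRC1. *Ring1* (chr17:34020792-34024680, minus strand) had H3K4me3 folds of 39.3 and 30.3, above 90.5% and 91.7% of genes, with H3K27ac of 12.6 and 8.59 and ATAC-seq of 4.94 and 5.15. Its ATAC-seq folds exceeded those of no more than 3.38% and 5.78% of genes, the lowest ranks of the 10. *Rnf2* (chr1:151458004-151500955, minus strand) had ATAC-seq folds of 17.4 and 14.03, H3K4me3 folds of 35.1 and 25.2 and H3K27ac folds of 19.9 and 20.6. The H3K4me3 folds of *Ring1*, *Bmi1* and *Rnf2* all exceeded those of over 79% of genes, but the ATAC-seq folds of *Ring1* and *Bmi1* were low and that of *Rnf2* was not, at 74.2% and 63.1%.

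The *Ring1* window is gene-dense and had 0 distal ATAC-seq peaks, while that of *Rnf2* had 6 and 2, of which 1 and 1 had a counterpart in the other replicate. H3K27me3 in the *Ring1* window amounted to a single peak of fold 3.76 in replicate 2 only, 19.5 kb from the start. The only other H3K27me3 peak outside the *Bmi1* window was in that of *Ezh1*, in replicate 1 only, with a fold of 3.75 in the promoters of *Cntnap1* and *Ccr10*.

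The demethylase gene *Kdm6a* (chrX:18162575-18279936, plus strand) had ATAC-seq folds of 16.001 and 15.99, H3K4me3 folds of 27.6 and 20.0, the lowest of the 10 genes in replicate 1, and H3K27ac folds of 21.1 and 15.1. Beyond the start its 157 kb window was nearly empty, with 2 distal ATAC-seq peaks in replicate 1 and 0 in replicate 2. Being X-linked, it can be present in 1 or 2 copies, and the labels of these libraries do not give the sex of the mice. The distance from its start to the nearest H3K27me3 peak was 39868 kb and 10239 kb, the longest of the 10 genes.

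*Kdm6b* (chr11:69398508-69413675, minus strand), known as a demethylase gene induced by signals, had the strongest and widest H3K27ac of the 10 genes. Its folds were 39.9 and 26.1 over 3695 and 3014 bp, above 97.6% and 92.6% of genes, and the window held 7 H3K27ac peaks in each replicate, a density of 12.7 per 100 kb that exceeded 97.9% and 98.6% of protein-coding genes. H3K4me3 had folds of 31.5 and 21.8. These peaks did not stand at the annotated start: no ATAC-seq peak lay within 1633 and 1618 bp of it and no H3K4me3 peak within 347 and 742 bp, while the strongest H3K4me3 and H3K27ac summits lay 3.7 and 3.6 kb, and 3.4 and 3.1 kb, inside the gene. The strongest ATAC-seq peak counted for the promoter, with folds of 9.26 and 7.27, was 12 kb inside, near a start without a coding sequence, so that with promoters of 1 kb *Kdm6b* had no ATAC-seq promoter peak in both replicates.

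RefSeq lists 10 start sites for *Kdm6b*, 5 of them over 500 bp upstream of the GENCODE start, up to 6692 bp. At a predicted start 4465 bp upstream, ATAC-seq, H3K4me3 and H3K27ac peaks covered the start in both replicates. The curated start, 2519 bp upstream, was covered by H3K4me3 and H3K27ac, with the nearest ATAC-seq peak 711 and 697 bp away. H3K27ac folds in this upstream block reached 21.6 and 16.2, and its strongest ATAC-seq peak in both replicates, 5.3 kb upstream, had folds of 8.96 and 10.6. The stretch of 50 bases either side of its summit (chr11:69418909-69419009, minus strand) is shown as the strongest open site of the upstream block, with a CACGTG in capitals, a motif of 1.78% of summit windows outside promoters of protein-coding genes.

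Kdm6b upstream site: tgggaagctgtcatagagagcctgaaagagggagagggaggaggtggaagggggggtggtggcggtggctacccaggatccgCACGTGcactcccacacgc

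**Figure D4:**
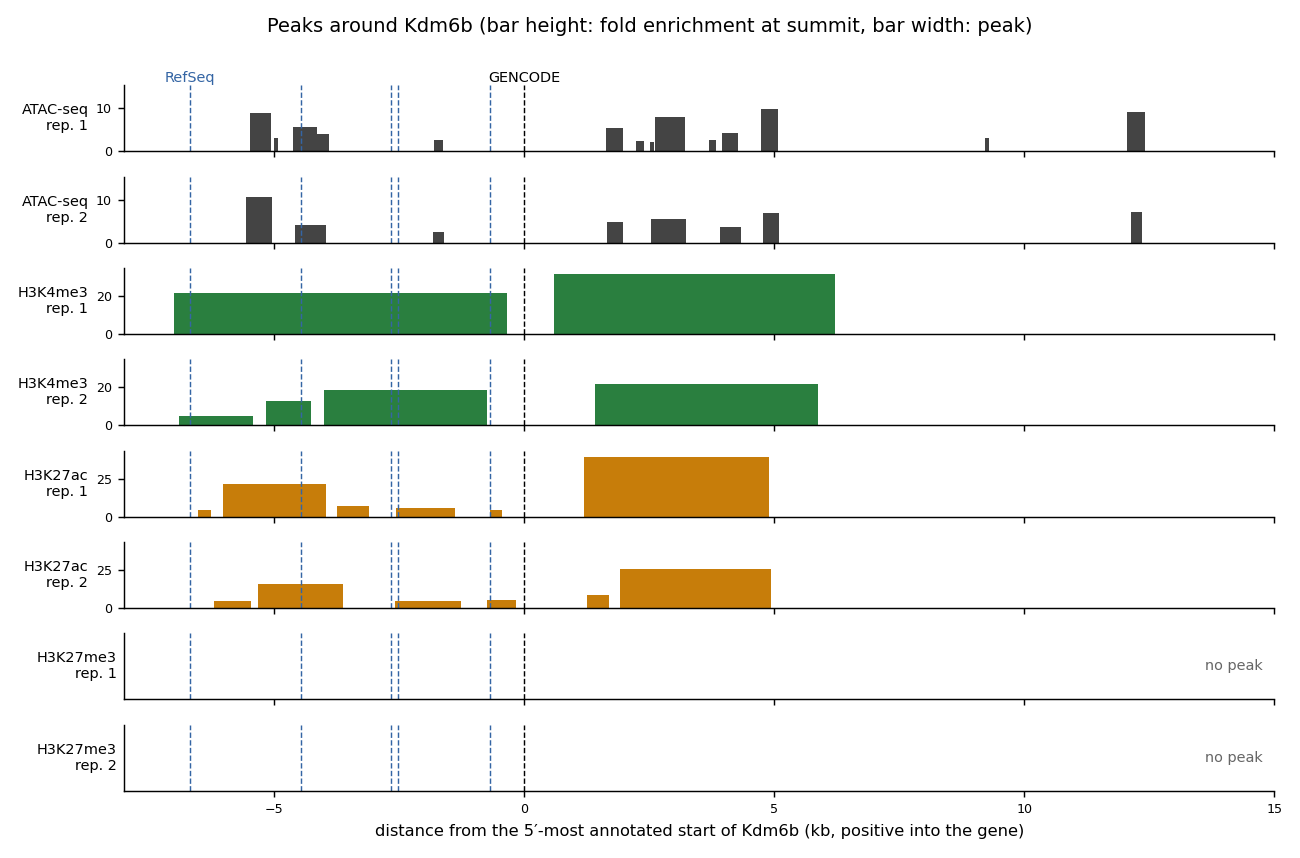
Peaks around *Kdm6b* by distance in kb from its 5′-most GENCODE start (dashed black; dashed blue, RefSeq starts over 500 bp upstream), 1 row per library, with bar height as fold enrichment at the summit and bar width as the peak, drawn no thinner than a fixed line. H3K4me3 and H3K27ac form a block on each side of the GENCODE start, and the strongest H3K27ac peak, of fold 39.9 and 26.1, lies inside the gene.

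Set side by side by rank within each library, the 10 genes kept different orders for the 3 active features. For H3K4me3, *Ezh2*, *Suz12*, *Ring1*, *Bmi1* and *Jarid2* lay above 85.6% to 95.3% of genes and stood in another order in each replicate. *Rnf2* followed, and *Eed* and *Kdm6a*, at 67.7% and 59.7% and at 61.1% and 60.1%, did not differ beyond their spread. For H3K27ac, *Kdm6b* came before *Eed* and *Ezh2*, while *Ring1*, at 43.8% and 30.6%, and *Bmi1* overlapped at the lower end. For ATAC-seq, *Jarid2* (30.3% and 27.9%), *Kdm6b* (23.5% and 15.8%), *Bmi1* and *Ring1* lay below the other 6 genes in both replicates. This order is by fold. By the −log10 q of the same peaks, *Jarid2* (138 and 112) stood above *Ezh1*, *Eed* and *Rnf2* in both replicates. It stood below *Ezh2* and *Suz12* in both, and above *Kdm6a* in replicate 1 only.

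All 10 genes exceeded the median H3K4me3 fold of protein-coding genes with a peak, 23.9 and 17.6, and their median was 35.9 and 26.7, at a median percentile of 83.9 and 83.5. For H3K27ac, 8 of the 10 exceeded the median in each replicate, with a median percentile of 72.0 and 68.7. For ATAC-seq, 6 and 5 of the 10 exceeded it, with a median percentile of 69.9 and 53.0. The widest H3K4me3 promoter peak had a median width of 2685 and 2103 bp, against 1631 and 1350 bp over all genes with a peak.

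Start sites further inside the genes were mostly bare. When start sites were joined into groups of neighbours within 500 bp, the 10 genes had 42 groups, 10 of them 5′-most. Of those 10, 8 had ATAC-seq, 9 H3K4me3 and 10 H3K27ac peaks within 500 bp in both replicates, and 1, that of *Bmi1*, H3K27me3. Of the 32 groups further inside, 4 had ATAC-seq, 5 H3K4me3 and 4 H3K27ac, 1 of which, in *Bmi1*, also had H3K27me3. The 4 with H3K27ac, in *Jarid2*, *Bmi1* and *Ring1*, lay within 4.6 kb of the 5′-most start and counted the same H3K4me3 peak. The same shares over all protein-coding genes were not computed.

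**Figure D5:**
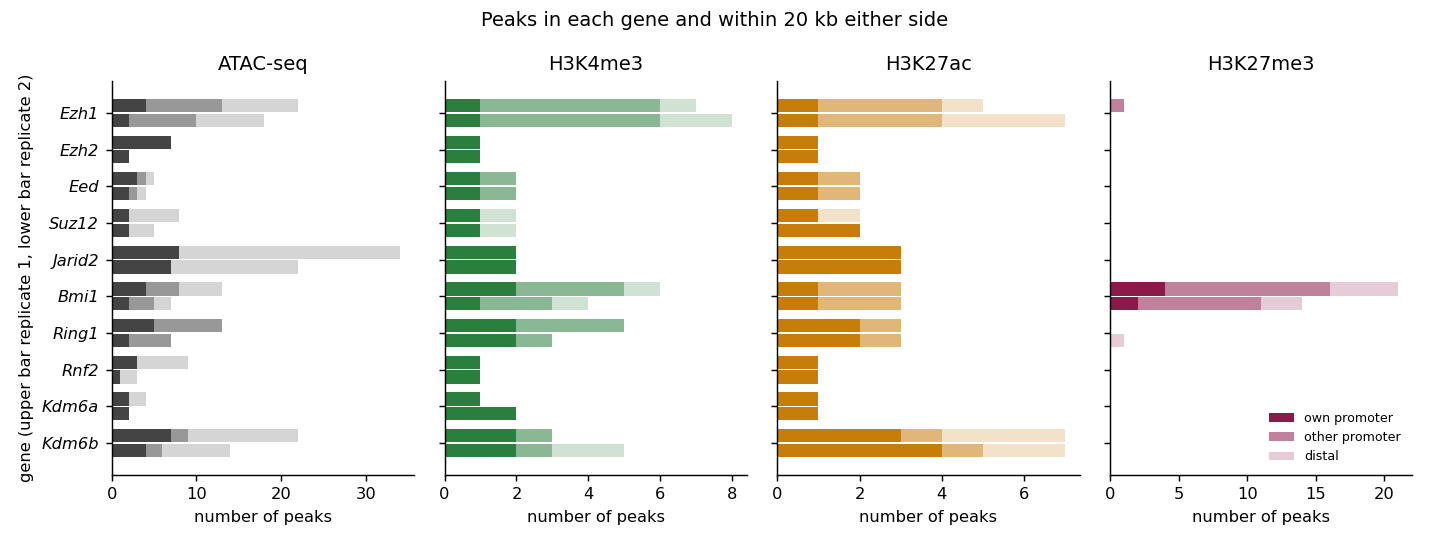
Number of peaks in each gene and within 20 kb either side (rows), for the 4 features (panels), upper bar replicate 1 and lower bar replicate 2, split into peaks of the gene's own promoter (dark), of promoters of other protein-coding genes (medium) and distal (light). *Jarid2* has the most distal ATAC-seq peaks (26 and 15), *Kdm6b* 7 H3K27ac peaks in each replicate, and *Bmi1* nearly all H3K27me3 peaks (21 and 14).

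Outside promoters, marked chromatin was confined to a few of the 10 windows. Distal H3K4me3 numbered 3 and 6 peaks and distal H3K27ac 5 and 5, the latter in the windows of *Ezh1*, *Suz12* and *Kdm6b*. Of the 68 and 39 distal ATAC-seq peaks, 37 and 34 had a counterpart in the other replicate, beside 62.9% and 84.7% of all ATAC-seq peaks. H3K27ac overlapped 10 and 7 of the 68 and 39, and its share over all distal ATAC-seq peaks of the genome was not computed.

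The wider pathway was read from 40 partner genes. ATAC-seq and H3K4me3 promoter peaks were found in 39 of 40 each (67.8% and 60.8% of protein-coding genes) and H3K27ac in 38 (46.6%), and 32 had the 3 active features with no H3K27me3 in either replicate (44.4%). All 4 genes of the H2A deubiquitinase group (*Bap1*, *Asxl1*, *Asxl2*, *Usp16*) and all 6 enzymes that work against Polycomb (*Ep300*, *Crebbp*, *Kmt2a* to *Kmt2d*) were in that state, as were 6 of 8 PRC2 partners, 7 of 10 partners of canonical PRC1 and 9 of 12 of variant PRC1. *Phf19*, a PRC2 partner that binds methylated H3K36, had no promoter peak of any of the 4 features in either replicate.

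H3K27me3 was listed at promoters of 3 of the 40 partners in both replicates, beside 4.81% of protein-coding genes, and of 4 more in replicate 2 alone. *Epop*, a PRC2 partner, had the strongest of these, with folds of 6.23 and 7.19, beside ATAC-seq (16.8 and 14.5) and H3K4me3 (16.99 and 16.2) and with no H3K27ac in either replicate. *Cbx8*, a chromodomain subunit of PRC1 that binds H3K27me3, carried it with folds of 4.88 and 5.22, together with H3K27ac of 5.37 and 5.52, the combination also seen at *Bmi1*. *Cbx2*, another chromodomain subunit, had it in replicate 2 only (3.38), as had *Rybp* (4.45), *Kdm2b* (3.99) and *Pcgf1* (4.30) of variant PRC1. In the gene and 20 kb either side, 7 of 40 partners had H3K27me3 in both replicates, beside 8.76% of protein-coding genes. The partners whose promoter ranks were nearest to the median of the 10 genes, by Euclidean distance over the 6 percentiles of ATAC-seq, H3K4me3 and H3K27ac, were *Kmt2b* (31.2 percentile points), *Auts2* (31.3) and *Phc2* (34.2).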

How the data were processed

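MuSCs, taken to be those sorted from Pax7Cas9 mice, were profiled by ATAC-seq and by ChIP-seq for H3K4me3, H3K27ac and H3K27me3. With 2 replicates each, these are 8 of the 272 samples of the series. The other samples were not analysed here. According to the study's methods and the submitters' processing notes, reads were trimmed (Trim Galore 0.6.10), aligned to mm10 (BWA 0.7.17-r1188), cleared of duplicates and of mapping qualities under 30 (SAMtools 1.5) and of blacklisted regions, shifted for Tn5 in ATAC-seq (deepTools 3.5.5), and peaks were called per library with MACS2 2.2.6. Each deposited list gives the authors' fold, a ratio of enrichment at the peak summit, and their p-value and q-value as −log10. H3K27me3 lists run down to a −log10 p of 3.01 with −log10 q as low as 0, whereas the lowest −log10 q of the other lists is 1.32, so that H3K27me3 peaks passed a less strict limit.

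Peaks on the 21 assembled chromosomes were joined by at least 1 bp to GENCODE M21 promoters (3 kb either side of a start) and windows (gene and 20 kb either side), with own Python code (Python 3.11.15, numpy 2.4.6, pandas 2.3.3, matplotlib 3.10.9) tested on simulated data. Genes were ranked within a library by the highest fold of their promoter peaks. Partners were named where an active feature was lacking in both replicates or H3K27me3 was present in either, plus the 3 nearest in rank. The values of 1 partner are not reported here. Neighbouring genes were named where their promoters overlap or hold a peak that is given. Exceptions are *H2-Ke6* and *Tmem88*, whose promoters overlap those of *Ring1* and *Kdm6b* and which were not described. Sequences are RefSeq's, of GRCm38.p6. The genes and lists were chosen with earlier results of these data known, and no test was made.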

Additional observations from a re-analysis of the deposited data

How the results depend on the processing

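Of 77 recomputed values under other settings, 64 moved by less than the spread between replicates, or, for counts, stayed within 1.5 times. The other 13 moved further. A change of direction was found for 0, but counts and widths, which are most of these values, have no sign that could change. Some of the 64 could not have moved further. Leaving out a replicate always shifts a mean by less than the spread between replicates. A count of all 10 genes in both replicates must stay at 10 in either alone. The 64 are therefore no measure of how stable the results are. When a −log10 q of 5 was the minimum, H3K27me3 was left at the promoters of 0 of the 10 genes and 1 partner, the mean number of H3K27me3 peaks in the windows fell from 18.5 to 0.5, and distal H3K27ac peaks from 5 to 3; with 50 kb flanks the latter became 9. Leaving out a replicate, 3 to 7 partners had H3K27me3 at the promoter. Ranked by −log10 q, the median percentile became 73.5 for ATAC-seq (61.4 by fold) and 86.2 for H3K4me3 (83.7 by fold). Ranked among all protein-coding genes it was 89.9 for H3K4me3 and 85.6 for H3K27ac, and with 1 kb promoters 65.0 for H3K27ac (70.3 with 3 kb). Leaving out single genes, chosen after seeing the data, brought distal ATAC-seq peaks from 53.5 to 33 without *Jarid2*, and H3K27me3 peaks to 1 without *Bmi1*. With RefSeq start sites, also chosen after seeing the data, the promoter counts of the 10 genes were the same. Apart from what each setting leaves out or adds, the cause was not tested. The depth is unknown and was not varied, and the H3K27me3 lists passed a less strict limit than the others. No paired analysis was possible because the results come from no test.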

Other observations

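The genes next to the Polycomb and demethylase genes mostly had active features as well; those named here were chosen after their values were seen. *Cul1* and *Trmt1l*, the neighbours of *Ezh2* and *Rnf2* whose starts lie beyond the 20 kb flanks, had H3K27ac promoter folds of 39.8 and 30.6 and of 33.3 and 25.4, above those of the Polycomb gene beside them. Next to *Ring1*, the start region shared by *Slc39a7* and *Rxrb*, about 7 kb away, had H3K27ac of 41.4 and 26.5, against 12.6 and 8.59 at *Ring1*, and *Col11a2*, a collagen gene, had only ATAC-seq peaks, of 5.69 and 3.47. *Dusp21*, 16.7 kb upstream of *Kdm6a*, had no promoter peak of any feature in either replicate, and *Dnah2*, the upstream neighbour of *Kdm6b*, had ATAC-seq and H3K4me3 but no H3K27ac. Of the neighbours looked up, *Spag6* beside *Bmi1* was the only one with H3K27me3 at its promoter in both replicates.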
